A study of Mus musculus with 21 samples.

Results

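A set of 10 genes that mark classes of cortical interneurons or encode neuropeptide precursors was followed in tissue labelled neocortex from rNLS8 mice, a model of TDP-43 pathology. The genes are Pvalb, Sst, Vip, Npy, Tac1, Cck, Crh, Adcyap1, Penk and Pdyn, and their rows were taken by symbol. All 10 symbols had a row among the 48474 rows of the count table, and all 10 passed the filter on low counts that left 18248 genes for testing. Bulk RNAseq libraries came from 21 mice, namely 10 rNLS8 mice (labelled TG) and 11 controls (labelled WT and called wild-type here), in independent cohorts A (4 wild-type, 3 rNLS8) and B (7 wild-type, 7 rNLS8). The comparison asks how the level of each gene differed between the genotypes after 3 weeks of transgene expression.

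The rNLS8 mice carried both NEFH-tTA, a transactivator under the neurofilament heavy chain promoter, and tetO-hTDP-43ΔNLS, human TDP-43 without its nuclear localization signal. The study describes this expression as almost only neuronal, with sparse oligodendrocytes. The controls are labelled WT, but the series text calls them monogenic littermates, so a control mouse may carry 1 of the transgenes. Both lines had been backcrossed to C57BL/6J, and the labels do not give the sex of each mouse. Every mouse of both genotypes, aged 17 to 19 weeks, had received 350 µg of a non-targeting antisense oligonucleotide (ASO) in 10 µL into a cerebral ventricle. Doxycycline at 200 mg/kg of diet kept the transgene off until 2 weeks after that injection, and the mice were killed 3 weeks later. No group without an ASO was part of the comparison.

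Cortical inhibition is carried by GABAergic interneurons that fall into largely separate classes, marked by the calcium-binding protein parvalbumin and by the peptides somatostatin and vasoactive intestinal peptide. Neuropeptides are cut from precursor proteins, stored in dense-core vesicles and released mostly during sustained firing, and they act on G protein-coupled receptors. Several are not restricted to interneurons, since Cck and Adcyap1 are also made by pyramidal cells, and Penk, Pdyn and Tac1 are abundant in projection neurons of the striatum, which lies beneath the neocortex.

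Several of these precursor genes are textbook targets of cAMP signalling, so the bases directly upstream of their RefSeq start sites are shown for the genes on which the results turn. RefSeq promoter windows (GRCm38.p6, 250 bases before to 50 bases after a start site) matched 8 of the 10 genes, in 11 windows, and Crh and Penk were not matched. The searched letters were the cAMP response element TGACGTCA, which reads the same on both strands, and its shorter form TGACG or CGTCA, its reverse complement, which the full element contains. Each line gives the 250 upstream bases, 5′ to 3′ on the strand of the gene, with matches in capitals. Sst lies at chr16:23890845-23891094 (minus strand), Vip at chr10:5638968-5639217 (plus), Cck at chr9:121495695-121495944 (minus), Tac1 at chr6:7554811-7555060 (plus) and Npy at chr6:49822460-49822709 (plus).
Sst: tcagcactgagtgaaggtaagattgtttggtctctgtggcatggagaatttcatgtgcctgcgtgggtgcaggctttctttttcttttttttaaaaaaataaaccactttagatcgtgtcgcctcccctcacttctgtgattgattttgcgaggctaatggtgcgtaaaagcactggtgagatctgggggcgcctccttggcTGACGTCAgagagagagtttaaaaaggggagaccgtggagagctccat
Vip: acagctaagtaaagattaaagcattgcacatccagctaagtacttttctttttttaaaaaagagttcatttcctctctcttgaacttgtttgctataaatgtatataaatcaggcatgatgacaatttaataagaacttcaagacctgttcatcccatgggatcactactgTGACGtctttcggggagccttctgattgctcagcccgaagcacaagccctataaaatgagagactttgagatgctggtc
Cck: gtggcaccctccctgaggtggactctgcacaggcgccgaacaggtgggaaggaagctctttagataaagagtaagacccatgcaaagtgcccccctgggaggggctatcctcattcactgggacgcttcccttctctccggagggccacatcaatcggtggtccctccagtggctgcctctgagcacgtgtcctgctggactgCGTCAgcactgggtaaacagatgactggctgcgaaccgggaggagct
Tac1: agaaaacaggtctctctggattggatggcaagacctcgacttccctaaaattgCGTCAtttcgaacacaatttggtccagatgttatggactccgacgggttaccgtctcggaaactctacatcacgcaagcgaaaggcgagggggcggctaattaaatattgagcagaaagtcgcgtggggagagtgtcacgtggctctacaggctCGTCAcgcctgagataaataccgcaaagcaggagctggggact
Npy: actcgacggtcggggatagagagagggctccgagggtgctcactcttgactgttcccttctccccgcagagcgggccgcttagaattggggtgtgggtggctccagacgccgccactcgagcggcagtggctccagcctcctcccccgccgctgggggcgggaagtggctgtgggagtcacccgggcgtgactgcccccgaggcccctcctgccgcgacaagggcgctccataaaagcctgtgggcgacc
The full element was found in the window of Sst alone, beginning 48 bases before the start site, and in 588 of all 32851 RefSeq windows of this length (1.79%). The short form was found in 5 of the 8 matched genes and in 6837 of all windows (20.8%). The genes were Sst, Vip (79 bases before the start site), Cck (47), Tac1 (197 and 43) and Adcyap1 (91, and 242 in its second window). Genes and windows are unlike units, since Adcyap1, Pvalb and Pdyn had more than 1 window each. The windows of Npy, Pvalb and Pdyn held neither form, which says only that these letters are absent from these bases.

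Total counts per library were between 20700912 and 22263809, and 3 counts corresponded to 0.135 to 0.145 CPM (counts relative to the library total). Values below are normalized counts, which are counts divided by the TMM-scaled library size and multiplied by its mean. With genotype and cohort in edgeR's quasi-likelihood test, 8154 of 18248 genes (44.7%) passed a Benjamini-Hochberg adjusted p of 0.05, so that 23% of genes were higher and 21.7% lower in rNLS8 mice. Tardbp, the gene of TDP-43 and the check of the labels, was between 2253 and 2827 normalized counts in wild-type mice, and every rNLS8 library but 1 was above that range. The exception was the library labelled rNLS8 mouse 9 of cohort A at 2363, although its summed level of 8 pan-neuronal markers (4960 CPM) was below the lowest wild-type mouse (5949 CPM), as in all other rNLS8 mice. In cohort A the other rNLS8 mice had 3091 and 2903, against 4405 to 5053 in cohort B. The log2 fold change of the Tardbp row was 0.26 in cohort A (edgeR adjusted p = 0.191) and 0.79 in cohort B (adjusted p = 1.42e-10). A further row, Tardbp-2, was at 0.21 in cohort A and 0.71 in cohort B. The transgene is human, and whether its reads were counted in these mouse rows or the mouse gene itself rose was not tested. Without the library labelled rNLS8 mouse 9, 9 of the 10 genes were still called, each lower. The labels name neocortex and the study's methods brain cortex. A figure legend of the study names hippocampus for an rNLS8 cohort of 11 wild-type and 10 rNLS8 mice, the same numbers as here. Slc17a7 was at 31930 ± 4040 normalized counts in wild-type mice (SD, n = 11). Its presence cannot separate neocortex from hippocampus, since excitatory neurons of both express it. Dentate gyrus and hippocampal markers summed to between 107 and 186 CPM in wild-type and to between 82.9 and 123 CPM in rNLS8 mice.

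In rNLS8 mice, 9 of the 10 genes were lower and 0 were higher, where 21.7% of all genes tested were called lower. The fitted log2 fold change was negative for all 10, with a median of -0.43 against -0.000675 over all genes, of which 50.1% were negative. Adcyap1 did not pass the test. The ranges of the genotypes overlapped for every one of the 10 genes, whereas they did not overlap for 7.65% of all genes (3.8% with every rNLS8 mouse lower and 3.85% with every rNLS8 mouse higher). Fitted reductions, computed from the log2 fold changes, ran from 10.6% for Sst to 52.6% for Penk among the genes called. In these bulk samples, fewer cells of a type and less RNA per cell cannot be told apart. The summed level of the 8 pan-neuronal markers was lower as well, between 4190 and 5370 CPM in rNLS8 and between 5950 and 7510 CPM in wild-type mice. Of the 8 genes, 5 were called lower, and the median log2 fold change was -0.43. Not called were Rbfox3 (-0.10, edgeR adjusted p = 0.189), Tubb3 (-0.06, 0.499) and Eno2 (0.05, 0.498), so the fall was not shared by all 8. The part of this summed level in the reductions was not tested.

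**Figure D1:**
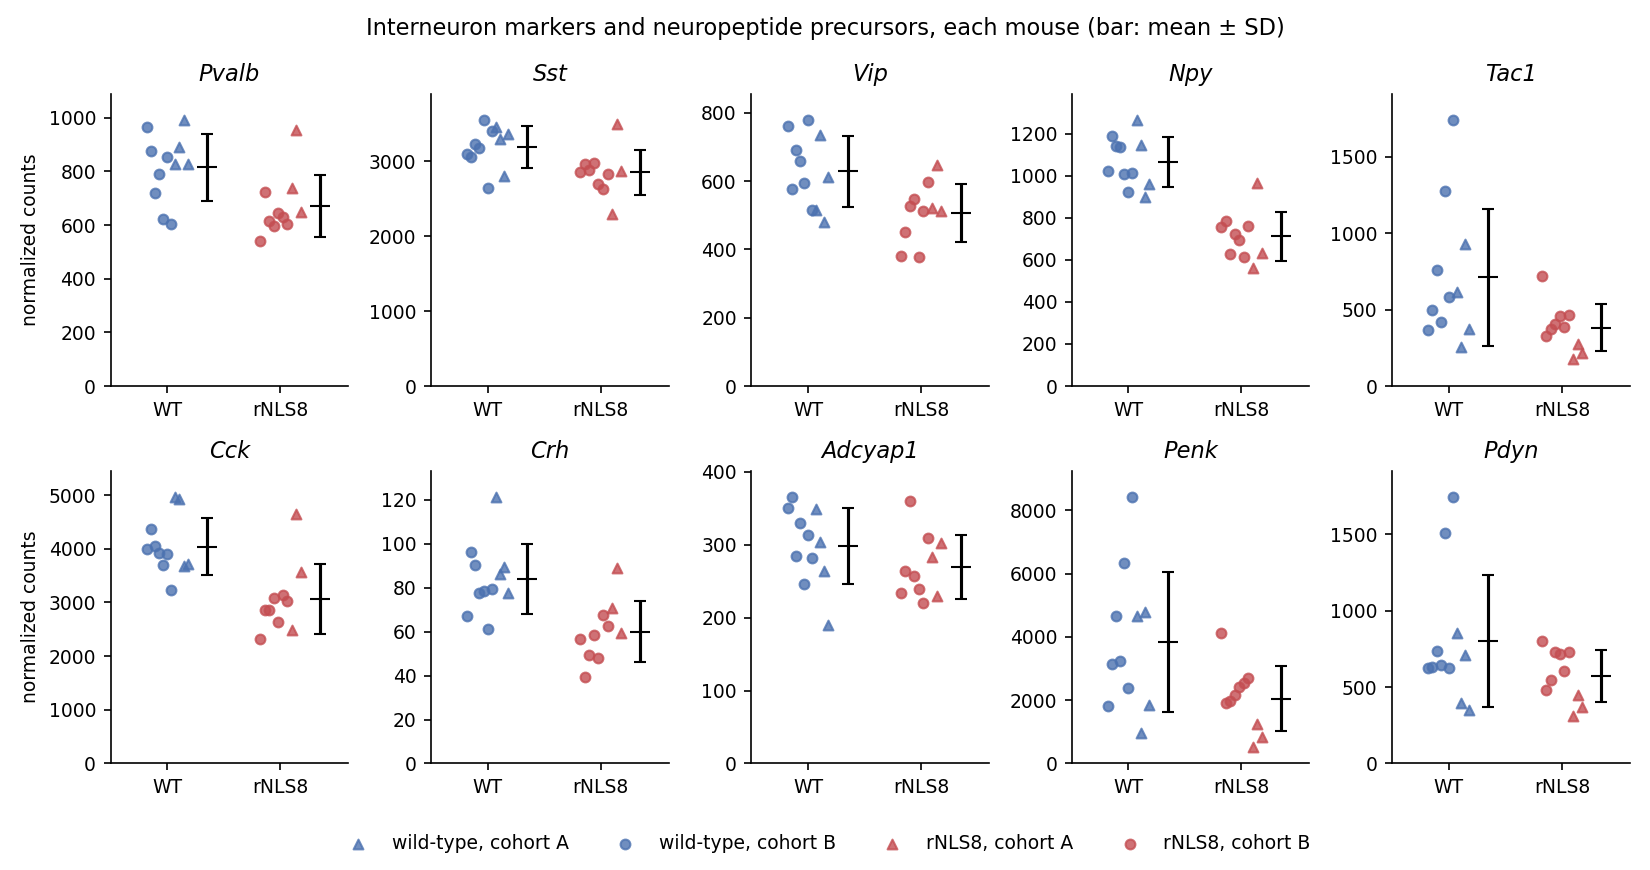
Normalized counts of each of the 10 genes (vertical axes, from 0) in wild-type (WT, blue) and rNLS8 (red) mice, with triangles for cohort A, circles for cohort B and a bar for the mean ± SD of 11 and 10 mice. Npy is the gene with the least overlap, with 9 of 10 rNLS8 mice below the lowest wild-type mouse at 898, while Penk, Tac1 and Pdyn spread widely in both genotypes.

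Pvalb (gene ID 19293, chromosome 15, 78191112 to 78206400 on GRCm38.p6, minus strand) encodes parvalbumin, the calcium buffer of fast-spiking basket and chandelier cells. Normalized counts of wild-type mice lay between 606 and 991 with a median of 828, and rNLS8 mice between 539 and 954 with a median of 636. Below the wild-type median were 9 of the 10 rNLS8 mice, and the library labelled rNLS8 mouse 9 was the exception. The mean fell from 815 ± 124 (SD, n = 11) to 670 ± 116 (SD, n = 10), a log2 fold change of -0.27 ± 0.080 (SE, edgeR adjusted p = 0.00749). The log2 fold change was -0.33 in cohort B alone (adjusted p = 0.0102) and -0.16 in cohort A alone (adjusted p = 0.521).

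Sst (gene ID 20604, chromosome 16, 23889573 to 23891342, minus strand) encodes somatostatin, the peptide of dendrite-targeting interneurons such as Martinotti cells. Its counts ran from 2644 to 3549 in wild-type mice (median 3229) and from 2296 to 3500 in rNLS8 mice (median 2864). It varied least among wild-type mice, with a coefficient of variation of 8.66%. The means were 3191 ± 276 and 2850 ± 304 (SD, n = 11 and 10), the smallest reduction among the genes called, at a log2 fold change of -0.16 ± 0.060 (SE, edgeR adjusted p = 0.0321). Sst no longer passed in 6 of the 21 fits that left out 1 mouse each (wild-type mice 5, 7 and 8, rNLS8 mice 5, 6 and 8), where edgeR adjusted p-values ran from 0.00376 to 0.0744 over all 21. Scaling by library size alone gave a log2 fold change of -0.09 (edgeR adjusted p = 0.221).

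Vip (gene ID 22353, chromosome 10, 5639193 to 5647617, plus strand) encodes vasoactive intestinal peptide, the marker of interneurons that mainly inhibit other interneurons. Wild-type mice had from 480 to 779 normalized counts (median 611) and rNLS8 mice from 379 to 648 (median 517). The mean was 629 ± 104 (SD, n = 11) in wild-type mice against 508 ± 85.4 (SD, n = 10), a log2 fold change of -0.31 ± 0.0996 (SE, edgeR adjusted p = 0.0137). The log2 fold change was -0.44 in cohort B alone (edgeR adjusted p = 0.00343) and -0.04 in cohort A alone (adjusted p = 0.909). Vip did not pass with scaling by library size alone (log2 fold change -0.23, adjusted p = 0.055). The test of the difference between the cohorts gave 0.37 on the log2 scale (standard error 0.202, edgeR adjusted p = 0.875).

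Npy (gene ID 109648, chromosome 6, 49822710 to 49829507, plus strand) encodes neuropeptide Y, which is made by part of the somatostatin cells and by neurogliaform cells, and which dampens excitability. It gave the smallest p-value of the 10 genes. Counts were between 898 and 1264 in wild-type mice (median 1020) and between 561 and 964 in rNLS8 mice (median 708). All 10 rNLS8 mice were below the wild-type median and 9 were below the lowest wild-type mouse, the library labelled rNLS8 mouse 9 being the one above it. The fitted reduction was 33.0%, with means that fell from 1064 ± 118 (SD, n = 11) to 712 ± 115 (SD, n = 10), a log2 fold change of -0.58 ± 0.081 (SE, edgeR adjusted p = 2.56e-06). In cohort B the genotypes did not overlap, with 923 to 1187 normalized counts in wild-type and 616 to 785 in rNLS8 mice (log2 fold change -0.59, edgeR adjusted p = 1.11e-06). In cohort A the wild-type mice had 1264, 1148, 898 and 959 normalized counts and the rNLS8 mice 561, 964 and 631. The log2 fold change there was -0.54, of like size, and did not pass the test (edgeR adjusted p = 0.0851). Leaving out any 1 of the 21 mice kept the fold change between -0.65 and -0.54.

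Tac1 (gene ID 21333, chromosome 6, 7555061 to 7562978, plus strand) encodes the precursor of substance P and neurokinin A, found in cortex mostly in a subset of parvalbumin cells and in the striatum in projection neurons. The wild-type mice ranged from 258 to 1739 normalized counts (median 583) and the rNLS8 mice from 175 to 722 (median 379). Wild-type mice varied widely, with a coefficient of variation of 63.2%, and 2 rNLS8 mice were below the lowest of them. The mean was 710 ± 449 (SD, n = 11) against 380 ± 154 (SD, n = 10), a log2 fold change of -0.98 ± 0.258 (SE, edgeR adjusted p = 0.00311). Tac1 passed the test in each cohort alone, with a log2 fold change of -1.27 in cohort A (adjusted p = 0.0448) and of -0.85 in cohort B (adjusted p = 0.0298).

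Cck (gene ID 12424, chromosome 9, 121489824 to 121495694, minus strand) encodes cholecystokinin, made by a class of basket cells and by many pyramidal cells. The wild-type mice lay between 3229 and 4956 normalized counts (median 3930.5), and rNLS8 mice between 2325 and 4640 (median 2938). Of the 10 rNLS8 mice, 8 were below the lowest wild-type mouse. The fitted reduction was 23.8%, with means that fell from 4041 ± 527 (SD, n = 11) to 3062 ± 656 (SD, n = 10), with a log2 fold change of -0.39 ± 0.086 (SE, edgeR adjusted p = 0.000664). In cohort B every rNLS8 mouse, at 2325 to 3144 normalized counts, was below every wild-type mouse, at 3229 to 4373. In cohort A the wild-type mice had 4956, 4924, 3681 and 3708 and the rNLS8 mice 2493, 4640 and 3560, so that the values were interleaved and the log2 fold change of -0.25 did not pass (edgeR adjusted p = 0.449).

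Crh (gene ID 12918, chromosome 3, 19693401 to 19695396, minus strand) encodes corticotropin-releasing hormone, the stress peptide that in cortex is made by interneurons. It had the fewest counts, from 61.1 to 121.0 in wild-type mice (median 79.3) and from 39.2 to 88.8 in rNLS8 mice (median 58.8). Of the rNLS8 mice, 6 were below the lowest wild-type mouse. The fitted reduction was 27.8%, with means that fell from 84.0 ± 16.0 (SD, n = 11) to 60.0 ± 13.8 (SD, n = 10), a log2 fold change of -0.47 ± 0.111 (SE, edgeR adjusted p = 0.00124). Adcyap1 (gene ID 11516, chromosome 17, 93198245 to 93206541, plus strand) encodes PACAP, a peptide of the same family as Vip. Its counts ran from 190 to 365 in wild-type (median 303) and from 221 to 361 in rNLS8 mice (median 261), and no rNLS8 mouse was below the lowest wild-type mouse. The mean was 298 ± 51.8 (SD, n = 11) and 270 ± 44.1 (SD, n = 10), with a log2 fold change of -0.15 (edgeR adjusted p = 0.254). Its approximate 95% interval ran from -0.34 to 0.05, which leaves room for a reduction as large as that of Pvalb.

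Penk (gene ID 18619, chromosome 4, 4133536 to 4138815, minus strand) encodes proenkephalin, and Pdyn (gene ID 18610, chromosome 2, 129686549 to 129699938, minus strand) encodes prodynorphin, the precursors of opioid peptides. Penk ran from 950 to 8408 normalized counts in wild-type mice (median 3235) and from 531 to 4139 in rNLS8 mice (median 2075). The mean was 3838 ± 2208 (SD, n = 11) against 2049 ± 1034 (SD, n = 10), which at 52.6% was the largest fitted reduction of the 10 (log2 fold change -1.08 ± 0.294 SE, edgeR adjusted p = 0.00436). With the level of striatal markers as covariate, its fitted reduction was 34.7%, beside 33.1% for Tac1 and 32.9% for Npy. In cohort A the wild-type mice had 4662, 950, 4785 and 1854 normalized counts and the rNLS8 mice 531, 1254 and 839. Penk passed the test in cohort A (log2 fold change -1.78, edgeR adjusted p = 0.0411) and in cohort B (-0.75, adjusted p = 0.0359). Pdyn ran from 349 to 1739 in wild-type mice (median 644) and from 312 to 800 in rNLS8 mice (median 575), and only 6 of 10 rNLS8 mice were below the wild-type median. The means were 801 ± 434 and 574 ± 169 (SD, n = 11 and 10), with a log2 fold change of -0.53 ± 0.196 (SE, edgeR adjusted p = 0.0287). Pdyn passed in neither cohort alone, at -0.59 in cohort A (adjusted p = 0.202) and -0.50 in cohort B (adjusted p = 0.0923). Nor did it pass with the striatal marker level as covariate (-0.29, edgeR adjusted p = 0.0843). Scaling by library size alone (-0.46, adjusted p = 0.0566) and a fit without a cohort term (-0.48, adjusted p = 0.107) did not call it either. It no longer passed without wild-type mouse 5, 7 or 8 or rNLS8 mouse 2 or 8, with log2 fold changes between -0.59 and -0.39 over the 21 fits. Penk overlaps the opposite-strand transcript A830012C17Rik, which had 2 counts in all 21 libraries together.

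In cohort A alone, 2 of the 10 genes (Tac1 and Penk) were called, each lower, where 11.8% of 18580 genes were called (4.83% lower, 6.99% higher). In cohort B alone 8 were called, each lower, where 39.1% of 18220 genes were called (19.8% lower, 19.3% higher). The log2 fold change was negative for each of the 10 genes in each cohort. The interaction of genotype and cohort passed the edgeR test for none of the 10 and for 0 of 18248 genes, of which 1030 had an unadjusted p under 0.05, and DESeq2 called 1 gene. Its estimates for the 10 genes ran from -1.06 (Penk) to 0.37 (Vip) on the log2 scale, cohort A minus cohort B.

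**Figure D2:**
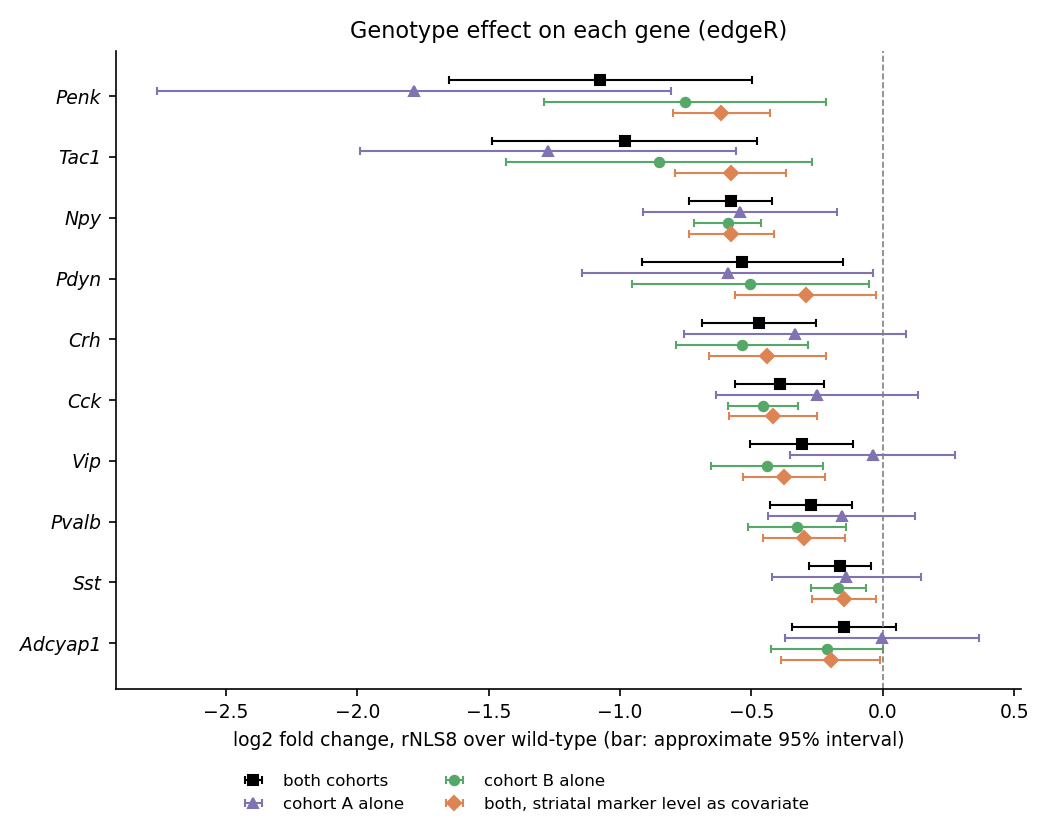
Log2 fold changes of rNLS8 over wild-type mice (horizontal axis) for the 10 genes from edgeR, with bars for the approximate 95% interval, for both cohorts (black), cohort A alone (purple), cohort B alone (green) and both cohorts with the level of striatal markers as covariate (orange). With the covariate, Penk moved from -1.08 to -0.61 and Tac1 from -0.98 to -0.58, while Npy stayed at -0.58.

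Since Penk, Tac1 and Pdyn are abundant in the striatum, they were set beside 11 markers of striatal projection neurons (among them Drd1, Drd2, Adora2a, Gpr6, Rgs9, Ppp1r1b and Pde10a), none of which was at 0. Their summed level ran from 279 to 1550 CPM in wild-type mice (median 685) and from 265 to 1290 CPM in rNLS8 mice (median 643). In cohort A the wild-type mice had 691.5, 279.3, 1300 and 512.1 CPM and the rNLS8 mice 264.8, 476.3 and 296.6 CPM, whereas the medians in cohort B were 685 CPM in wild-type and 696.1 CPM in rNLS8 mice. Of the 11 markers, 2 were called lower in rNLS8 mice by edgeR with Benjamini-Hochberg adjustment, among them Drd1 (log2 fold change -0.66, adjusted p = 0.0362). With scaling by library size alone, 1 of the 11 was lower, and Drd1 did not pass (adjusted p = 0.0623). The median over the list was -0.41, with -1.27 in cohort A alone and -0.13 in cohort B alone, and without rNLS8 mice 8 and 9 it was -0.28 and none of the 11 was called.

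For these relations, the striatal level of a mouse was the sum of the log2 CPM of the 11 markers, not their summed CPM. Across the 21 mice, Penk followed this level closely, with Pearson's r = 0.923 and Spearman's rho = 0.848. Each permutation p was 1e-05, the smallest that 100000 permutations can give. The adjusted p-values were 3.33e-05 and 1e-04 over 10 such relations. For Penk, r was 0.896 without the 2 mice farthest from the median striatal level, 0.927 in cohort A, 0.866 in cohort B, 0.963 within wild-type and 0.978 within rNLS8 mice. Tac1 gave r = 0.88 and rho = 0.806 (permutation p = 1e-05 and 2e-05, adjusted p = 3.33e-05 and 1e-04), with 0.865 without the 2 farthest mice, 0.947 in cohort A and 0.828 in cohort B. Pdyn gave r = 0.829 and rho = 0.747 (permutation p = 1e-05 and 0.00023, adjusted p = 3.33e-05 and 0.000767), with 0.791 without the 2 farthest mice, 0.791 in cohort A and 0.766 in cohort B. For Npy, r was 0.147 (permutation p = 0.524, adjusted p = 0.582) and rho -0.04 (permutation p = 0.868, adjusted p = 0.97). For Pvalb, r was negative at -0.39 (permutation p = 0.0827, adjusted p = 0.195) and rho = -0.51 (permutation p = 0.0185, adjusted p = 0.0463), with r = -0.59 within wild-type and -0.54 within rNLS8 mice. Its r was 0.606 in cohort A and -0.69 in cohort B, so the sign was not the same in both cohorts. For Vip, r was -0.37 (permutation p = 0.0974, adjusted p = 0.195) and rho -0.43 (permutation p = 0.051, adjusted p = 0.102), with r = -0.35 without the 2 farthest mice, -0.48 in cohort A, -0.46 in cohort B, -0.63 within wild-type and -0.47 within rNLS8 mice. For Cck, r was -0.25 (permutation p = 0.267, adjusted p = 0.445) and rho -0.34 (permutation p = 0.125, adjusted p = 0.209), with r = 0.212 in cohort A, -0.34 in cohort B, -0.68 within wild-type and -0.38 within rNLS8 mice.

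With the striatal level as a further covariate in edgeR, 7 of the 10 genes were called, each lower, where 44.5% of all genes were called (21.6% lower, 22.9% higher). Penk was then 34.7% lower by the fit in rNLS8 mice (log2 fold change -0.61 ± 0.0947 SE, adjusted p = 1.19e-05) and Tac1 33.1% lower (-0.58, standard error 0.108, adjusted p = 0.000116). The standard error of Penk without the covariate had been 0.294 and that of Tac1 0.258. Pdyn was at -0.29 (standard error 0.136, adjusted p = 0.0843) and Sst at -0.15 (adjusted p = 0.054), and neither passed. Npy (-0.58), Cck (-0.42), Crh (-0.44), Vip (-0.37) and Pvalb (-0.30) passed. The covariate was read from the same libraries, and 2 of its genes were themselves lower in rNLS8 mice.

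**Figure D3:**
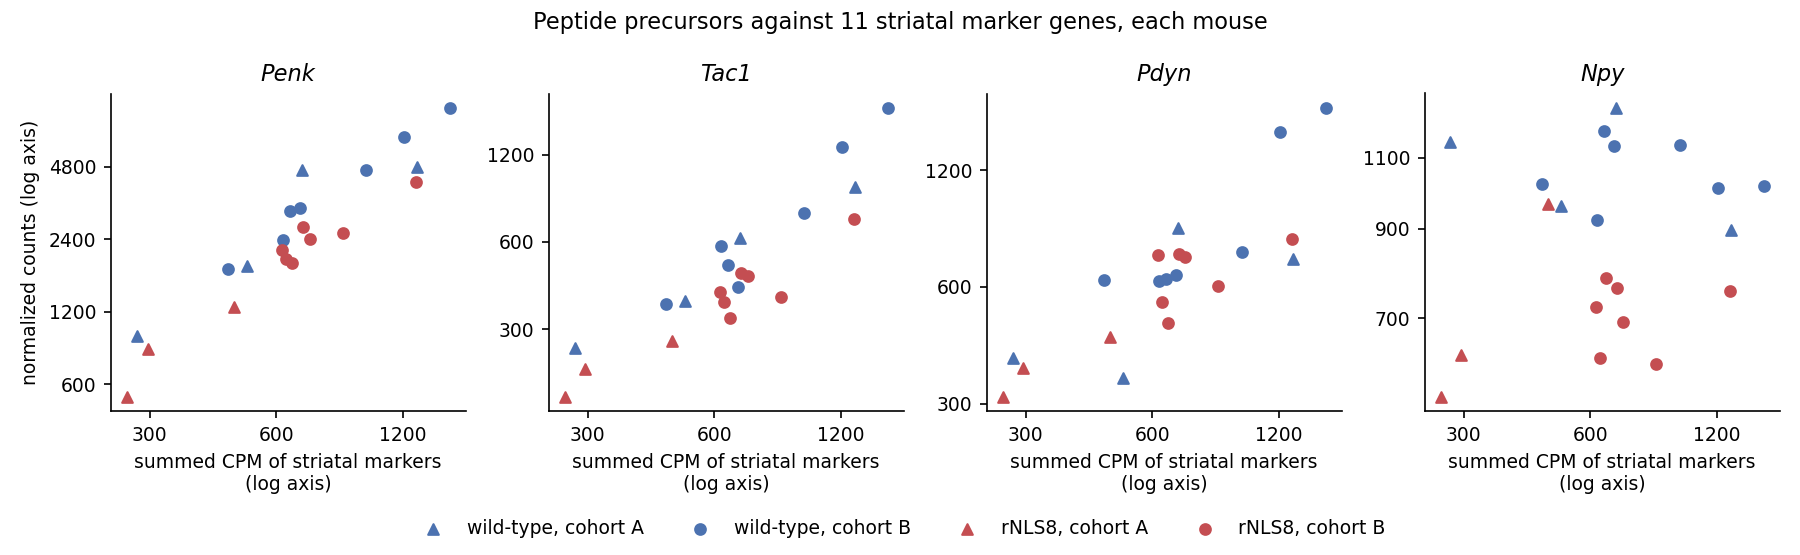
Normalized counts of Penk, Tac1, Pdyn and Npy (vertical, log axes) against the summed CPM of 11 striatal marker genes (horizontal, log axes), 1 point per mouse, with triangles for cohort A and circles for cohort B. Penk, Tac1 and Pdyn rise with the striatal level in both genotypes. Their r of 0.923, 0.88 and 0.829 was computed with the sum of the log2 CPM of these markers, not with the plotted sum. In Npy, 9 of 10 rNLS8 mice lie below every wild-type mouse.

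Whether genes fell by unlike amounts was tested on log2 ratios of 6 pairs within each mouse, by exact two-sided permutation of genotype within cohort. The Sst to Npy ratio was 1.59 ± 0.149 in wild-type and 2.01 ± 0.121 in rNLS8 mice (log2, SD, n = 11 and 10), a difference of 0.42 (exact permutation p = 1.67e-05, adjusted p = 9.99e-05 over the 6 pairs). The lowest rNLS8 mouse at 1.86 was above the highest wild-type mouse at 1.81, so that this ratio separated all 21 mice, the library labelled rNLS8 mouse 9 included, although neither gene did alone. The difference was 0.42 in cohort A (adjusted p = 0.229, 4 against 3 mice) and 0.43 in cohort B. With the few relabellings of cohort A, a single pair could not pass after adjustment over the 6 pairs. Among the class markers, the differences were -0.10 for Pvalb to Sst (exact permutation p = 0.371, adjusted p = 0.445), 0.04 for Pvalb to Vip (p = 0.721, adjusted p = 0.721) and 0.14 for Sst to Vip (p = 0.258, adjusted p = 0.387). Each was within the spread between mice, whose SD was between 0.222 and 0.325. The Pvalb to Tac1 ratio differed by 0.55 (exact permutation p = 0.115, adjusted p = 0.23). The Penk to Pdyn ratio was 2.18 ± 0.454 in wild-type and 1.69 ± 0.465 in rNLS8 mice (n = 11 and 10), a difference of -0.51 (exact permutation p = 0.02, adjusted p = 0.06), and it passed the threshold without wild-type mouse 1 or 9 or rNLS8 mouse 1.

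**Figure D4:**
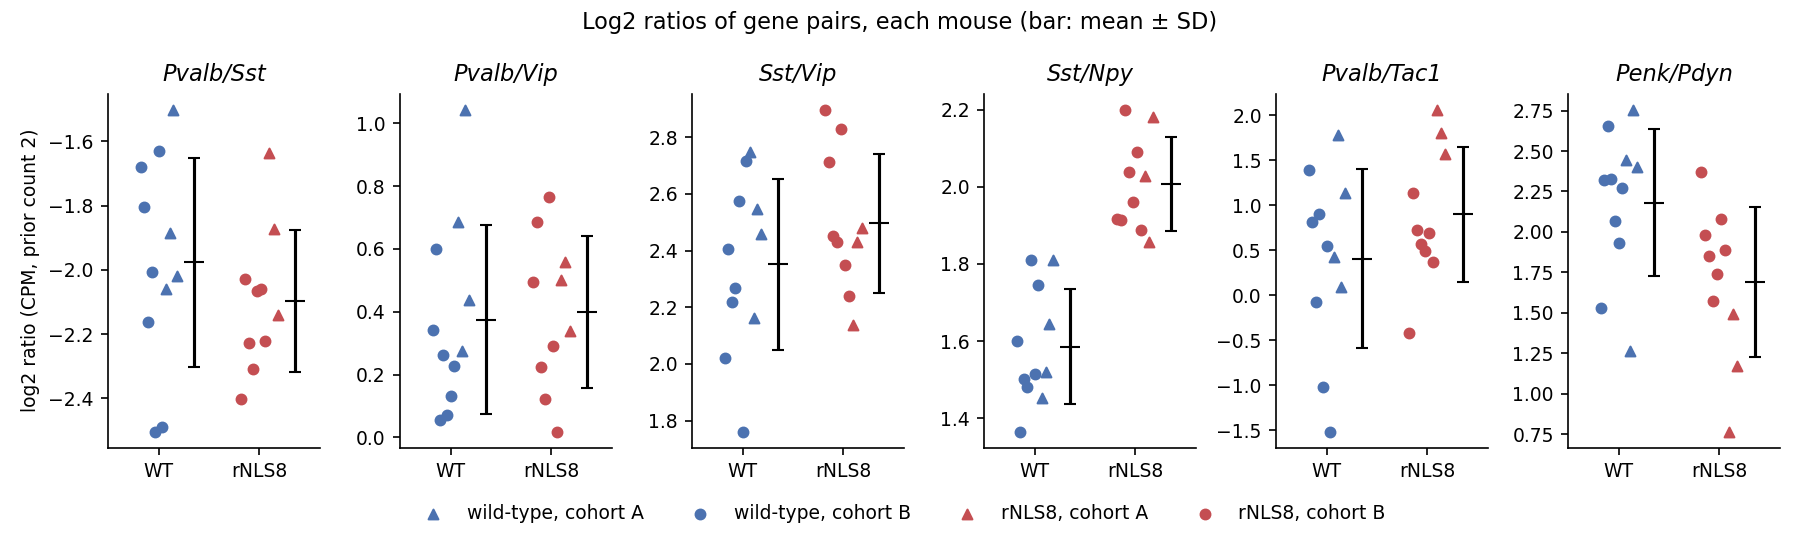
Log2 ratios of 6 gene pairs (vertical axes, from CPM with a prior count of 2) in each wild-type (blue) and rNLS8 (red) mouse, with triangles for cohort A, circles for cohort B and a bar for the mean ± SD. The Sst to Npy ratio is the pair without overlap between the genotypes.

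Per kilobase of exon, which allows levels to be compared between genes, the order in wild-type mice was Sst, Cck, Penk, Npy, Pvalb, Pdyn, Tac1, Vip, Adcyap1 and Crh. Sst was at 4430 ± 383 and Cck at 3100 ± 404 normalized counts per kilobase (SD, n = 11), and these neighbours were separated by more than their SDs. Penk (2350 ± 1350) was separated by its SD neither from Cck above it nor from Npy (1880 ± 208) below it. Pvalb followed at 783 ± 120, apart from Npy above it and from Pdyn below it. Pdyn (277 ± 150), Tac1 (209 ± 132) and Vip (185 ± 30.7) overlapped, as did Adcyap1 (78.9 ± 13.7) and Crh (63.6 ± 12.1). In rNLS8 mice Npy (1260 ± 204) and Penk (1250 ± 633) exchanged places within their spread, and so did Vip (149 ± 25.1) and Tac1 (112 ± 45.4).

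Among 20 genes shared by GABAergic neurons, 6 were lower and 0 higher in rNLS8 mice (median log2 fold change -0.15), by the same edgeR test with Benjamini-Hochberg adjustment. Over all genes, 44.7% were called and 21.7% were lower, and the counts of this and the following lists are given as a description beside those shares. Gad1, the main GABA-synthesizing enzyme, fell from 7241 ± 1330 to 5423 ± 1030 normalized counts (log2 fold change -0.45 ± 0.0757 SE, adjusted p = 3.05e-05). Lower as well were Dlx6os1 (-0.39), the vesicular GABA transporter Slc32a1 (-0.35), Adarb2 (-0.30) and Gad2, the other GABA-synthesizing enzyme. With scaling by library size alone, Gad2 and Slc32a1 no longer passed (adjusted p = 0.113 and 0.0568), and 3 of the 20 were lower and 1 higher (median -0.0692). Striatal projection neurons are GABAergic as well, and with the level of striatal markers as covariate 6 were lower and 0 higher (median -0.10). The 14 genes that did not pass ran from -0.29 (Dlx5) to 0.11 (Prox1).

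Of 10 partner genes of the parvalbumin class, 5 were lower and 0 higher (median -0.24). Vamp1, a vesicle SNARE of fast synapses, fell from 2899 ± 257 to 1952 ± 225 normalized counts without overlap between the genotypes (log2 fold change -0.56, edgeR adjusted p = 1.77e-08). Syt2, the calcium sensor of fast release, was at -0.52 (adjusted p = 1.66e-05), Plcxd3 at -0.64 (0.00583), the potassium channel Kcnc2 at -0.16 (0.0398) and Pthlh at -0.31 (0.0465), of which Kcnc2 and Pthlh did not pass with scaling by library size alone (adjusted p = 0.272 and 0.127). Of 12 somatostatin partner genes, 11 were tested, 4 were lower and 0 higher (median -0.24). These were the calcium buffer Calb1 (-0.57, edgeR adjusted p = 1.44e-05), the synaptic organizer Cbln4 (-0.97, 4.65e-05), the CRH-binding protein Crhbp (-0.33, 0.00203) and the NMDA receptor subunit Grin3a (-0.28, 0.0148), of which Grin3a did not pass with scaling by library size alone (adjusted p = 0.067). Cort, a peptide close to somatostatin, was at -0.03 (adjusted p = 0.872). The vasoactive intestinal peptide partners gave 1 higher and 2 lower of 9 tested (median -0.02), with Parm1 at -0.76 (edgeR adjusted p = 4.59e-07), Cxcl14 at -0.31 (4.98e-05) and Tac2, which encodes neurokinin B, at 0.48 (0.00245). With scaling by library size alone, 2 were higher and 2 lower, and the median was 0.0546, opposite in sign. It was opposite in sign as well with the striatal marker level as covariate (0.0623).

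Genes of the LAMP5 and NDNF class, the neurogliaform and neighbouring cells of the upper layers, gave 4 lower and 2 higher of 9 (median -0.29). Lamp5 itself fell from 3147 ± 431 to 1129 ± 254 normalized counts (log2 fold change -1.48, edgeR adjusted p = 1.34e-10), a larger fitted change than that of any of the 10 genes. Id2 (-0.45, adjusted p = 3.48e-09), Kit (-0.50) and Pde11a (-0.48) were lower, and Lsp1 (0.66, adjusted p = 2.25e-05) and Cplx3 (0.28) were higher. Pde11a did not pass with scaling by library size alone (adjusted p = 0.0591). Lamp5 is also expressed by pyramidal cells of the upper layers. Of 8 excitatory markers, 4 were lower and 1 higher (median -0.19), among them Nrn1 at -1.03. The 12 genes induced by neuronal activity gave 8 lower and 0 higher (median -0.59), with Nptx2 at -1.12 (edgeR adjusted p = 5.71e-10). Whether activity or cell numbers moved the peptide genes was not tested.

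On the receiving side, 21 of 22 receptors and binding proteins of neuropeptides were tested. Of these, 6 were lower and 2 higher (median -0.30), where 44.7% of all genes were called and 21.7% were lower. The somatostatin receptors Sstr2 (-0.47, edgeR adjusted p = 7.8e-07), Sstr1 (-0.39, 2e-04) and Sstr3 (-0.30, 0.000619) and the cholecystokinin receptor Cckbr (-0.42, 0.000129) were lower. Lower as well were Vipr1 (-0.35, 0.0013), a receptor of vasoactive intestinal peptide, and Crhbp. The nociceptin receptor Oprl1 rose from 916 ± 79.6 to 1360 ± 82.6 normalized counts without overlap (0.56, edgeR adjusted p = 4.23e-10), and Crhr1, the main CRH receptor of the brain, rose by 0.31 (0.00352). The main Npy receptor of the cortex, Npy1r, was at -0.10 (adjusted p = 0.242), and the PACAP receptor Adcyap1r1 at -0.07 (adjusted p = 0.295).

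Of 16 genes of peptide processing and dense-core vesicles, 7 were lower and 2 higher (median -0.17). Cadps2, a priming factor of dense-core vesicles, fell from 1933 ± 206 to 1100 ± 188 normalized counts without overlap (log2 fold change -0.83, edgeR adjusted p = 9.33e-09). The granin Chgb (-0.52, adjusted p = 7.84e-06), the chaperone Scg5 (-0.32, 5.75e-05) and carboxypeptidase E, Cpe (-0.21, 4.76e-05), were lower, and so were Scg2 (-0.51), Pcsk2 (-0.22) and Pcsk1 (-0.26), which cut precursors or fill the granules. The peptide-degrading enzyme Ece1 (0.36, adjusted p = 3.23e-05) and Pcsk1n, an inhibitor of Pcsk1 (0.32, 6.66e-05), were higher. With scaling by library size alone, 6 were lower and 4 higher, and Pcsk1 did not pass (adjusted p = 0.0992). Vgf was at 0.01 (adjusted p = 0.93).

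**Figure D5:**
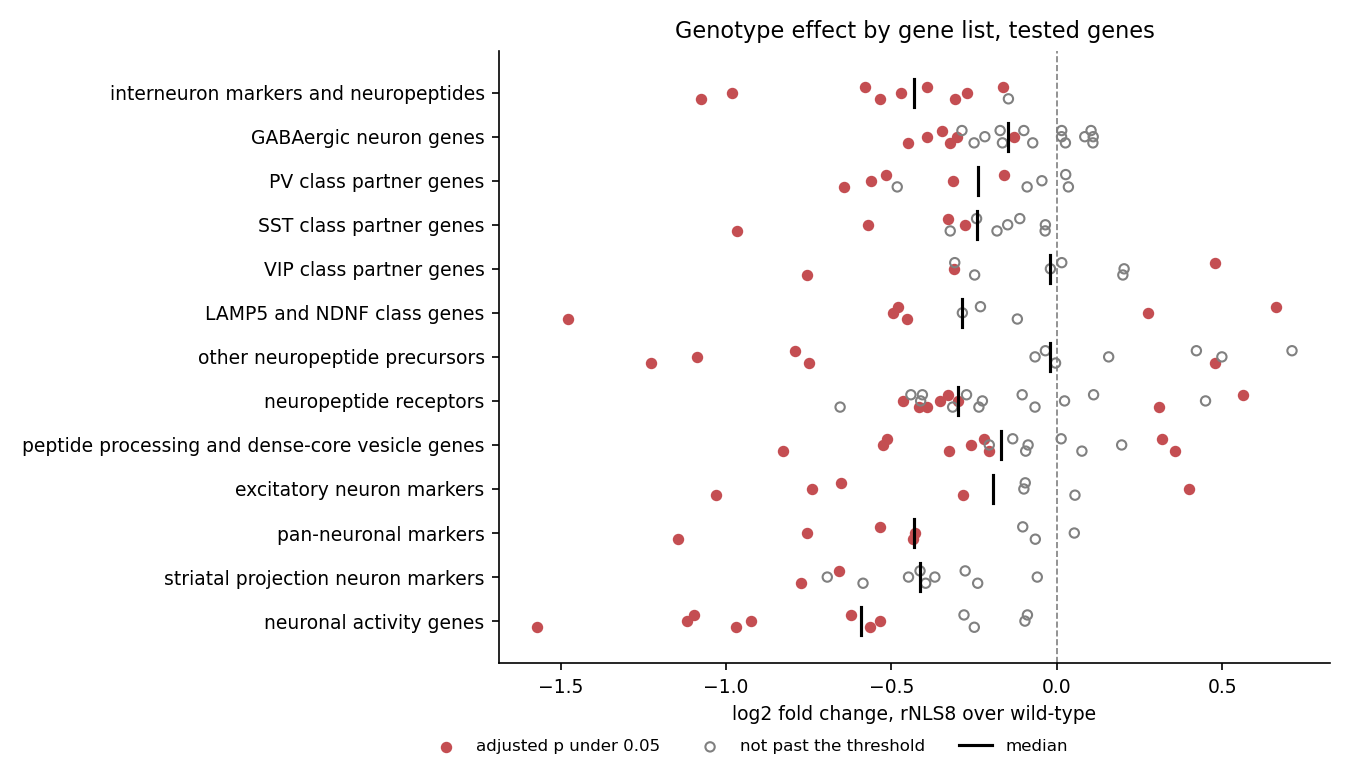
Log2 fold changes of rNLS8 over wild-type mice (horizontal axis) for each tested gene of the gene lists (rows), red where the edgeR adjusted p was under 0.05, open where it was not, with a black line at the median. All 10 interneuron and neuropeptide genes lie left of 0, with a median of -0.43 that is close to that of the pan-neuronal markers. Genes on both sides of 0 are found among the pan-neuronal markers, the GABAergic genes and the receptors.

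After removal of the means of the 4 genotype and cohort groups, the genes whose log2 CPM was most like each of the 10 over the 21 mice were searched among 13809 genes. Tac1 was most like Rarb (Pearson's r = 0.961), Drd1 (0.952) and Prkch (0.95), and Penk most like Slc35d3 (0.957), Adora2a (0.952) and Pde1b (0.946). Pdyn was most like Slc32a1 (0.919), Rem2 (0.898) and Zfp503 (0.897). Cck was most like Ywhah (0.915), Mpp2 (0.906) and Svop (0.902), Sst most like Ftsj3 (0.912), Eif3b (0.905) and Gm4575 (0.893), and Npy most like Prkaca (0.894), Rtl8b (0.892) and Ilf2 (0.883). The closest genes were less alike for Vip (Osbpl1a, 0.847), Pvalb (1110038F14Rik, 0.81), Crh (Igfbp2, 0.788) and Adcyap1 (Pak7, 0.77). Among the 10 genes themselves, Penk and Tac1 (0.922), Tac1 and Pdyn (0.896) and Penk and Pdyn (0.856) were most alike, followed by Sst and Npy (0.708) and Npy and Cck (0.667). These correlations share libraries and their depth, and are given as a description.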

How the data were processed

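For 21 mice, the authors deposited unnormalized whole-number counts of reads, 1 row per gene symbol. The submitters' processing notes name HISAT, HISAT2, Bowtie, Bowtie2 and RSEM with no role or order, and mm10 (GRCm38). The program and strand setting of the counting are not given in the sources used here, so reads of overlapping genes on opposite strands cannot be told apart. Rows that are further copies of a symbol (2553 rows, 4.11% of counts) were kept.

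The counts were tested with edgeR 4.0.16 in R 4.3.3 (filter by expression with minimum count 10 and minimum total 15, TMM, quasi-likelihood test, genotype and cohort in the model, Benjamini-Hochberg adjustment over 18248 genes, threshold 0.05). Standard errors are the absolute log2 fold change divided by the square root of F. Pair ratios were log2 CPM differences with a prior count of 2, tested by exact two-sided permutation of genotype within cohort. The 3 rNLS8 mice of cohort A limit the precision in that cohort, and counting intervals cover counting error only.

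Named were all 10 genes, up to 5 genes per list with the smallest adjusted p, the 3 genes most like each of the 10 (mean of at least 50 counts) and Tardbp. Other list genes were named after their values were seen, and some list genes are not reported here. The 10 genes and the lists were chosen with earlier results of these data known. Alternatives were DESeq2 1.42.0, no cohort term, scaling by library size, upper-quartile normalization, other filters, each cohort alone, the striatal marker level or Xist as covariate, copy rows left out, a prior count of 0.5 and leaving out each mouse. Leaving out the 2 mice of highest striatal level, or rNLS8 mice 8 and 9, was an addition made once the data had been seen. The scripts were first tested on simulated data. Replicates are separate mice. Exon lengths and gene positions came from GENCODE M21, promoters and their start sites from RefSeq, both on GRCm38.p6. No sample was left out.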

Additional observations from a re-analysis of the deposited data

Results flagged for a closer look

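In 3 cases a single rNLS8 mouse lay far from the other 9, judged by its gap to the nearest mouse as a share of the whole range (Dixon's criterion at the 95% level). The library labelled rNLS8 mouse 9 of cohort A was highest for Pvalb, at 954 normalized counts against 737 in the next mouse and 539 in the lowest (share 0.5226). The same library was highest for Cck, at 4640 against 3560 and 2325 (share 0.4663, just above the limit). For Tac1, rNLS8 mouse 1 of cohort B was highest at 722 against 467 and 175 (share 0.4664, just above the limit). Only the 10 rNLS8 groups could be examined, since groups of more than 10 mice were not, and chance gives such a value in about 1 of 20 groups, or 0.5 of these 10, if each group is uniform. The rNLS8 mice of the cohorts were pooled here, and their means in cohorts A and B were 780 and 622 for Pvalb, 3565 and 2846 for Cck and 222 and 448 for Tac1. Without rNLS8 mouse 9, the log2 fold change was -0.33 for Pvalb (edgeR adjusted p = 0.00101) and -0.47 for Cck (edgeR adjusted p = 2.17e-05).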

How the results depend on the processing

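The direction stayed negative for each of the 10 genes in all 13 alternatives and in all 21 fits without 1 mouse. Tac1 and Penk passed the edgeR or DESeq2 test in every one of them. Of the 10 genes, between 6 (library size only, with 8584 of all genes called) and 9 were called in every alternative but cohort A alone, and all-gene calls in these ran from 7126 (cohort B alone) to 8584. The exception was cohort A alone, which called 2 of the 10 genes and 2195 of all genes, and 7 to 9 were called without 1 mouse, with 7805 to 8363 of all genes. In cohort A alone, values that did not pass were -0.16 for Pvalb, -0.14 for Sst, -0.0384 for Vip, -0.54 for Npy, -0.25 for Cck, -0.33 for Crh and -0.59 for Pdyn, with 7 mice in the fit. Sst did not pass at -0.0861 with library size only, -0.15 without a filter, -0.15 with the striatal covariate and -0.15 without the 2 mice of highest striatal level (wild-type mouse 7 and rNLS8 mouse 1), and ran from -0.20 to -0.12 when 1 mouse was left out. Pdyn did not pass at -0.48 without a cohort term, -0.46 with library size only, -0.50 in cohort B alone, -0.29 with the striatal covariate, -0.43 without the same 2 mice and -0.52 without rNLS8 mice 8 and 9, and ran from -0.59 to -0.39 when 1 mouse was left out. Vip did not pass with library size only (-0.23). That scaling shifted the median of all genes by 0.0765 on the log2 scale and put 67.9% of calls higher, against 51.4% with TMM. The genotype by cohort interaction called 1 gene with DESeq2 and 0 to 1 genes without 1 mouse. Its estimates changed sign when 1 mouse was left out for Pvalb (-0.0325 to 0.25), Sst (-0.16 to 0.14), Npy (-0.26 to 0.16), Cck (-0.0647 to 0.37) and Pdyn (-0.34 to 0.13), none past the threshold. In cohort A alone, the Pvalb to Vip ratio was -0.14 and the Sst to Vip ratio -0.13, opposite in sign. The Sst to Npy ratio was 0.42 there without passing, which a single pair could not do with so few relabellings. Without 1 mouse, Pvalb to Vip ran from -0.0076 to 0.0914 and Penk to Pdyn from -0.59 to -0.41. The cause of these changes was not tested. No paired analysis was possible because the labels give no replicate numbers shared between the genotypes. Crh had the fewest counts of the 10 genes, at 39.2 to 121.0 normalized counts.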

Other observations

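Outside the 10 genes, 12 of 22 other neuropeptide precursors had enough counts to be tested, and 4 were lower and 1 higher in rNLS8 mice (edgeR, Benjamini-Hochberg adjusted, median log2 fold change -0.02), where 44.7% of all genes were called and 21.7% were lower. With scaling by library size alone the median was 0.057, opposite in sign, with the same counts, and in cohort A alone it was -0.21. Cartpt, the precursor of the CART peptides, fell from 171.5 ± 87.3 to 81.5 ± 19.4 normalized counts (SD, n = 11 and 10, log2 fold change -1.09, edgeR adjusted p = 0.000453). Nts, which encodes neurotensin, was at -1.23 (adjusted p = 0.000738), Grp, which encodes gastrin-releasing peptide, at -0.75 (0.00197) and Nmb, which encodes neuromedin B, at -0.79 (0.00587). Tac2, the neurokinin B precursor, was the one that rose, at 0.48 (0.00245).

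Peptides of the hypothalamus varied between single mice. Summed over 7 hypothalamic markers, wild-type mice ran from 1.41 to 35.7 CPM (median 3.06) and rNLS8 mice from 1.15 to 97.4 CPM (median 2.92), and neither of the 2 markers tested, Avp and Pomc, passed. Choroid plexus markers ran from 21.9 to 2240 CPM in wild-type and from 29.8 to 1140 CPM in rNLS8 mice, with 0 of 6 called. Among glial lists, 3 of 5 microglia markers were higher (Aif1 at 0.47, Tmem119 at 0.18 and Csf1r at 0.13) and 1 was lower (P2ry12 at -0.35), and without rNLS8 mice 8 and 9 none of the 5 was higher. For the other glia, 0 of 5 oligodendrocyte markers were called, and of 5 astrocyte markers 1 was higher (Gfap, log2 fold change 1.03, edgeR adjusted p = 4.97e-08) and 3 were lower, none of which passed with scaling by library size alone.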
